A study of Rattus norvegicus with 6 samples.

Results

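The genes described here encode voltage-gated sodium channels, voltage-gated calcium channels, HCN channels and TRP channels, with the auxiliary subunits that share their names. They were taken by name and biotype alone, under a rule chosen with earlier results of these data known. A protein-coding row of the count table was taken where its name began with Scn, a number and a or b, with Cacna, Cacnb or Cacng, with Hcn and a digit, or with Trpc, Trpm or Trpv and a digit. This gave 66 of the 33565 rows, or of the 22250 protein-coding rows. The rule also took in Trpc4ap, which encodes an adaptor protein and no channel, and Trpc5os, a row on the strand opposite to Trpc5. The cells were primary heart cells of 7-day-old Sprague-Dawley rats, labelled as cardiomyocytes and grown in a culture medium with 10% fetal bovine serum. The progesterone group (3 samples) was exposed for 24 h to progesterone, a steroid hormone, at 100 nM, and the control group (3 samples) was exposed to vehicle for the same time. Gene expression was read by RNA-seq of mRNA-enriched RNA at this single dose and time. The labels call the 3 samples of a group biological replicates, without naming animals or cultures. The p-values therefore cover only how far these particular samples differ, and that spread may be technical.

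Voltage-gated sodium channels carry the fast inward current that starts the action potential of working heart muscle. L-type calcium channels carry the calcium current of the plateau that triggers contraction, and T-type channels open at more negative voltages and are a feature of immature and pacemaker heart cells. HCN channels open on hyperpolarization and carry the pacemaker current, and TRP channels are cation channels gated by lipids, calcium, temperature, stretch or other stimuli. The large pore-forming subunits (alpha or alpha1) are accompanied by beta, alpha2delta and gamma subunits that set gating and transport to the membrane.

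The stretches of 250 bases before the RefSeq start of 5 members on the rat assembly GRCr8 are given because these genes changed, were read at 10 CPM or more in a group, and either changed by 2-fold or more or hold the letters searched for. The letters searched on both strands were AGAACA, a core of sites bound by steroid receptors, GGAATG, the core of sites bound by TEAD factors (the DNA-binding partners of YAP, which the series title names), and the core of the interferon response element. Capitals mark a match, which here is always CATTCC, the reverse complement of GGAATG, and no matches overlapped.
Trpc6 (chr8:14043966-14044215, + strand, higher with progesterone): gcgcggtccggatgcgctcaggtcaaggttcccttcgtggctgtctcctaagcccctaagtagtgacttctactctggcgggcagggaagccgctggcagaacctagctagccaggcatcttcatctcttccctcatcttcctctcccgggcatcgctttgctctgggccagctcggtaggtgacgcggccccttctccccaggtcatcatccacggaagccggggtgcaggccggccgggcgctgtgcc
Trpv2 (chr10:47771973-47772222, + strand, higher with progesterone): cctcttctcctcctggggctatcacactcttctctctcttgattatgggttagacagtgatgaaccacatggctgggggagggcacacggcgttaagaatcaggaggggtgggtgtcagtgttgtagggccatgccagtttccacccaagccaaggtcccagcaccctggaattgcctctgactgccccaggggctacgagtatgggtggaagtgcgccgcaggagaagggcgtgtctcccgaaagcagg
Cacna1c (chr4:154051749-154051998, - strand, higher with progesterone): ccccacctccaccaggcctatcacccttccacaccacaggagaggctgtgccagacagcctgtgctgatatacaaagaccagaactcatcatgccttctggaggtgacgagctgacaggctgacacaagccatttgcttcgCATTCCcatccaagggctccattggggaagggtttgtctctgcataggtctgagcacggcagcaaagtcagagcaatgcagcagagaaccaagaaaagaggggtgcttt
Cacna2d2 (chr8:116950856-116951105, + strand, lower with progesterone): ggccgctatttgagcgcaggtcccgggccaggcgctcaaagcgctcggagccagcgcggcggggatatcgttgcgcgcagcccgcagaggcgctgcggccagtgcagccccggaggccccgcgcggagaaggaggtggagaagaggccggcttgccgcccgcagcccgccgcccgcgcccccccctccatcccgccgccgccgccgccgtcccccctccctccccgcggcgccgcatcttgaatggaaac
Hcn2 (chr7:10639458-10639707, - strand, lower with progesterone): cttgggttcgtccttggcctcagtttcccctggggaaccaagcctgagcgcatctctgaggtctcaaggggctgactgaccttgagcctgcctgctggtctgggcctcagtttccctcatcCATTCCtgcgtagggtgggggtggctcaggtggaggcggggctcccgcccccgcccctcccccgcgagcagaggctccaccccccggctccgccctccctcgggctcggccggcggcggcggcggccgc
The GGAATG letters stood in the window of Cacna1c, which was higher with progesterone, and of Hcn2, which was lower. Promoter windows matched 49 of the 66 members by symbol. The GGAATG letters were found in 6 of these 49 windows and in 11.8% of all 27457 promoters in the same table. Among the windows of changed members they were found in 2 of 8 that rose and in 2 of 12 that fell. The AGAACA letters were found in 5 of the 49 windows, against 17.1% of all promoters, and in 0 of 8 that rose and 1 of 12 that fell. The interferon response element core was found in 1 of the 49 windows, that of Scn10a, against 3.29% of all promoters. A match describes these letters only.

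Channel genes moved in both directions with progesterone. Of the 66 members, 38 were expressed, taken as a mean of at least 1 CPM (counts scaled to library size, with TMM factors) in a group. A filter on low counts let 44 of the 66 into the test, the 38 expressed ones and 6 below that level. With edgeR's quasi-likelihood test across all 15075 genes tested and an adjusted p under 0.05, 13 of the 44 were higher with progesterone, 15 were lower and 16 did not pass. The 28 called members were 63.6% of those tested, next to 63.0% of all genes tested, so the share of changed members was near the background. By direction the background was 31.2% higher and 31.8% lower. Upper quartile scaling gave 14 higher and 14 lower members, and put 60.1% of the calls over all genes on the higher side against 49.6% with TMM scaling. Changes of 2-fold or more were found for 6 higher and 9 lower members, where 7.14% and 9.31% of all genes tested were called at that size. The CPM values of the groups did not overlap in 32 of the 44, with 68.6% as the background. The median log2 fold change was -0.16 over the tested members and 0.00 over all genes tested. A tested member may have passed the filter through its higher group alone, so these counts describe the tested members and not the other 22.

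**Figure D1:**
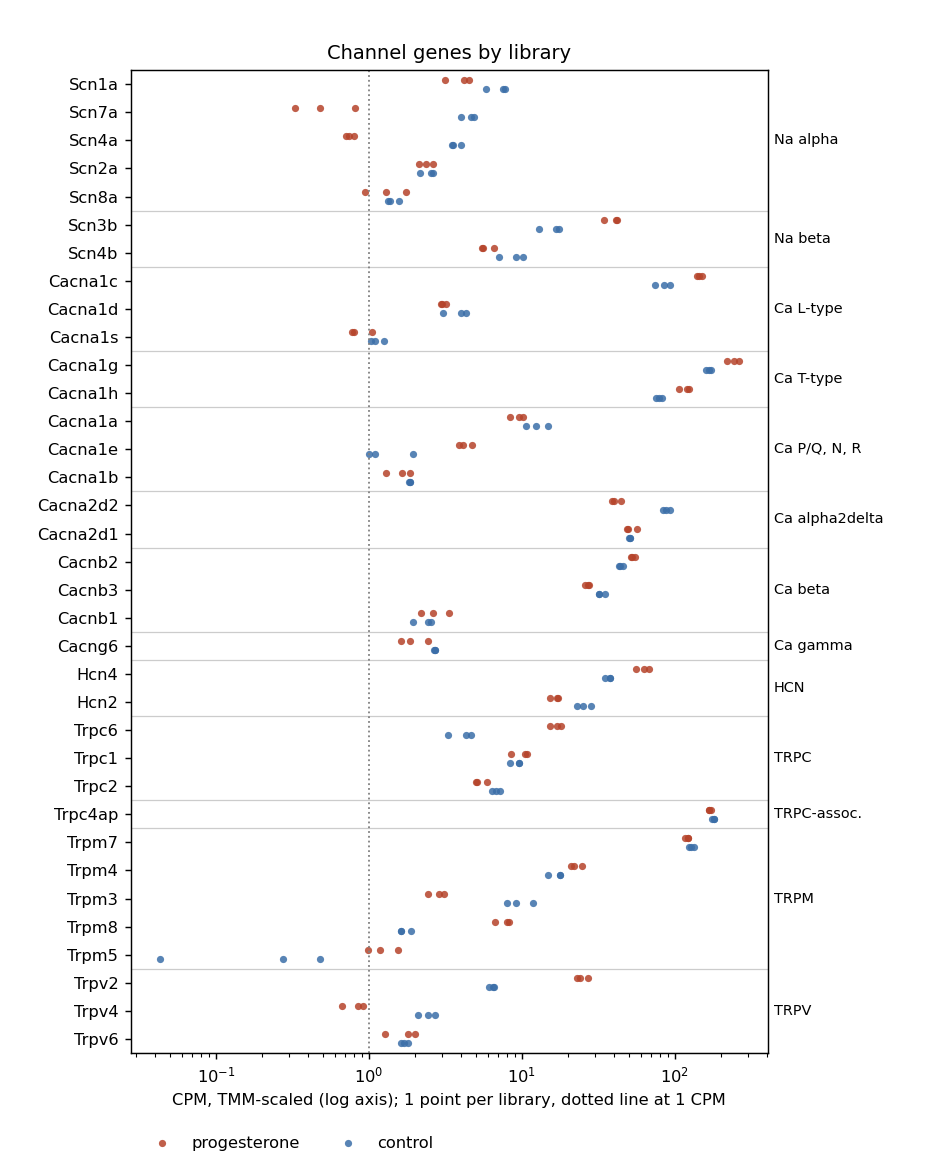
Level of 35 of the 38 expressed channel genes in every library, as TMM-scaled CPM on a log axis, with progesterone libraries above control libraries in each row and genes grouped by role. Hcn4, Cacna1c and Trpc6 lie to the right in all 3 progesterone libraries, and Scn4a, Scn7a and Cacna2d2 to the left.

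Libraries held from 21156793 to 25376220 counts, and log2 CPM values correlated at 0.988 to 0.99 within groups. Markers of other heart cell types were read beside those of cardiomyocytes, and every marker with a row had counts. Cardiomyocyte markers summed to between 13690 and 15070 CPM in progesterone libraries and between 14350 and 14470 CPM in control libraries, with 4 of 10 higher and 4 lower. Fibroblast markers, which define connective tissue cells, summed to 37640 to 40510 CPM with progesterone and 27700 to 28900 CPM in controls. Of 9 tested members, 6 were higher and 2 lower. Col3a1 averaged 13740 CPM with progesterone and 6556 CPM in controls, while Dcn and Pdgfra fell 2.21-fold and 2.17-fold. Smooth muscle and pericyte markers summed to 6717 to 7176 CPM with progesterone against 3704 to 4138 CPM in controls, with 9 of 12 higher and 3 lower. The largest part with progesterone was Acta2, which averaged 2611 CPM there and 690 CPM in controls. Of the 3 lower members, Kcnj8 and Abcc9 fell 2.46-fold and 2.25-fold. Leukocyte markers summed to 184.8 to 205.1 CPM with progesterone against 50.1 to 71.8 CPM in controls, with 6 of 8 tested members higher and 1 lower. Most of the leukocyte sum with progesterone was Lyz2, a lysozyme of myeloid cells, at 109.7 ± 6.46 CPM with progesterone and 7.06 ± 3.33 CPM in controls (SD, n = 3 each, edgeR adjusted p = 0.000357). Csf1r, the receptor of a macrophage growth factor, was at 16.2 ± 1.39 CPM with progesterone and 3.29 ± 1.10 CPM in controls (edgeR adjusted p = 2.38e-06). Cd74, of antigen-presenting cells, was at 1.63 ± 0.545 CPM with progesterone and 12.6 ± 1.52 CPM in controls and fell (edgeR adjusted p = 4.44e-08), and the macrophage marker Adgre1, at 0.244 CPM with progesterone and 0.0423 CPM in controls, was not tested. The fibroblast, smooth muscle and leukocyte sums did not overlap between groups, and the cardiomyocyte sums did. Endothelial markers summed to 145.9 to 195 CPM with progesterone and 177.1 to 229.4 CPM in controls, with 3 of 9 higher and 3 lower. Neuron and Schwann cell markers summed to 470.0 to 487.9 CPM with progesterone and 333.7 to 380.0 CPM in controls, with 3 of 7 tested members higher and 1 lower. Most of that sum was Prnp, a gene that many cells use, the sums did not overlap, and the defining markers Snap25, Th and Stmn2 were all under 0.15 CPM in both groups. In bulk RNA, fewer cells of a type cannot be told apart from less RNA per cell. Over all genes tested, 31.2% were higher and 31.8% lower, and the counts of each marker list rest on few genes. The part of these cell types in the channel results was not tested.

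Levels of different genes can be compared only per length, as the authors' FPKM values (fragments scaled by gene length and library size). By this measure the adaptor Trpc4ap stood highest in both groups, at 53.6 ± 0.975 FPKM with progesterone and 56.5 ± 1.19 FPKM in controls (SD, n = 3 each, as for all CPM and FPKM values with ±). The next levels with progesterone were those of Cacna1g at 31.5, Cacnb2 at 23.1, Trpm7 at 21.2 and Cacna1c at 18.0 FPKM, each apart from its neighbour in every library. In controls Trpm7 stood at 22.7, Cacna1g at 21.7, Cacnb2 at 19.4 and Cacna2d2 at 18.5 FPKM, where Trpm7 overlapped with Cacna1g and Cacnb2 with Cacna2d2. Cacna1c was at rank 5 with progesterone and rank 10 in controls, and Cacna2d2 was at rank 13 with progesterone and rank 6 in controls. Scn3b was at rank 10 with progesterone and rank 14 in controls, while Trpv2 was at rank 12 with progesterone and rank 16 in controls. From rank 16 to rank 22 in controls each gene overlapped with the next. At a threshold of 1 FPKM in place of 1 CPM, 24 members counted as expressed.

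Sodium channel genes were mostly lower with progesterone. Of 14 genes, 9 were expressed and 11 tested, and 1 was higher, 7 fell and 3 did not pass. Their median change was -0.83 on the log2 scale. The called share was 72.7%, next to 63.0% over all genes tested (31.2% higher and 31.8% lower). The alpha genes Scn1a, Scn4a and Scn7a, all read at low levels, were lower with progesterone in every library. Scn1a, a channel known mainly from neurons, stood at 3.95 ± 0.730 CPM with progesterone and 7.03 ± 1.011 CPM in controls (1.78-fold lower, edgeR adjusted p = 0.000583). Scn4a, the skeletal muscle sodium channel, stood at 0.749 ± 0.0463 CPM with progesterone and 3.67 ± 0.272 CPM in controls (4.87-fold lower, edgeR adjusted p = 1.87e-07). Scn7a, which encodes a sodium-sensing member that is not gated like its relatives, had 0.537 ± 0.243 CPM with progesterone and 4.49 ± 0.459 CPM in controls. This was the steepest fall of any tested member by fitted value, at a log2 fold change of -3.05 ± 0.27 (edgeR adjusted p = 8.85e-08). Scn2a (2.38 ± 0.257 CPM with progesterone, 2.44 ± 0.260 CPM in controls, edgeR adjusted p = 0.872) and Scn8a (1.33 ± 0.406 CPM with progesterone, 1.43 ± 0.130 CPM in controls, edgeR adjusted p = 0.762), both known mainly from neurons, did not pass. Scn3a was tested below the expression level, at 0.322 CPM with progesterone and 0.519 CPM in controls, and did not pass (edgeR adjusted p = 0.207).

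The beta subunits, membrane proteins that modulate the alpha subunit and act in cell adhesion, moved in both directions, with 1 of 4 higher and 3 lower. These counts rest on 4 genes, next to 31.2% higher and 31.8% lower over all genes tested. Scn3b was read at 34.5, 42.0 and 41.0 CPM with progesterone and at 17.5, 16.7 and 13.0 CPM in controls. It was the only sodium channel gene that rose, 2.49-fold (log2 fold change 1.31 ± 0.12, SE; edgeR adjusted p = 5.59e-06). Scn4b stood at 5.88 ± 0.573 CPM with progesterone and 8.80 ± 1.60 CPM in controls (1.49-fold lower, edgeR adjusted p = 0.00307), and Scn2b, under 1 CPM, had 24 counts over the progesterone libraries and 64 over the controls (edgeR adjusted p = 0.0112). The call of Scn2b was lost without control replicate 3 (adjusted p = 0.0618) and with DESeq2 (0.055), over a range of 0.00638 to 0.0618 in all alternatives.

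**Figure D2:**
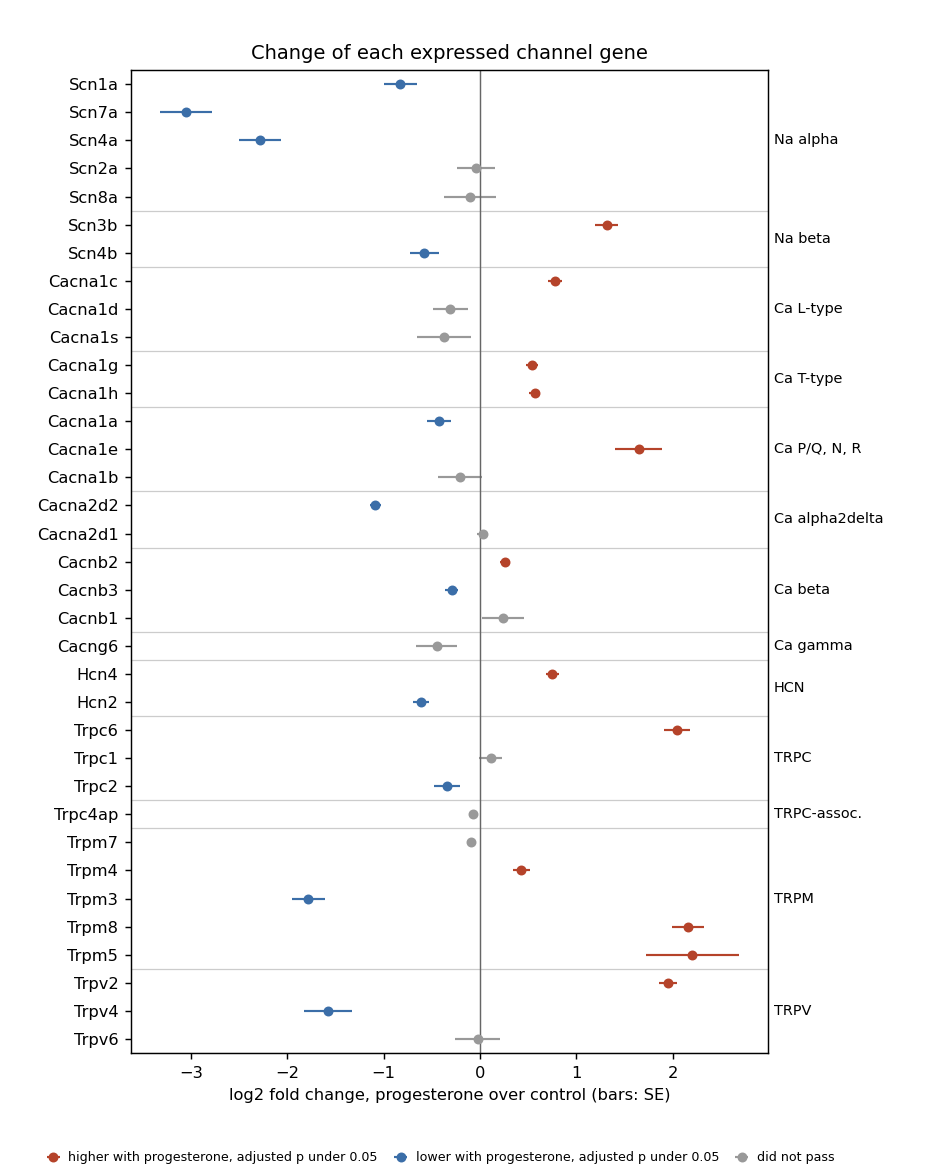
Log2 fold change of progesterone over control for 35 of the 38 expressed channel genes, with SE bars and genes grouped by role. Scn1a, Scn4a and Scn7a lie left of 0, the T-type genes Cacna1g and Cacna1h lie right of it, and Hcn4 and Hcn2 lie on opposite sides.

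The most abundant calcium channel pore subunits, Cacna1c, Cacna1g and Cacna1h, all rose with progesterone. Of 25 genes, 14 were expressed and 16 tested, with 5 higher, 3 lower and 8 that did not pass. Called genes thus made up a smaller share than the 63.0% over all genes tested (31.2% higher and 31.8% lower). This comparison rests on 16 genes. Cacna1c, the main L-type channel of heart muscle, was read at 152, 139 and 144 CPM with progesterone and at 74.7, 85.3 and 93.2 CPM in controls. The groups did not overlap, and Cacna1c rose 1.72-fold (log2 fold change 0.78 ± 0.073, SE; edgeR adjusted p = 6.39e-06). The other L-type genes were low, with Cacna1d at 3.04 ± 0.114 CPM with progesterone and 3.77 ± 0.658 CPM in controls, Cacna1s, the skeletal muscle channel, at 0.874 ± 0.146 CPM with progesterone and 1.13 ± 0.118 CPM in controls, and both did not pass (edgeR adjusted p = 0.153 and 0.261). Cacna1c held 97.5% ± 0.0989 of the L-type FPKM with progesterone and 94.6% ± 0.229 in controls.

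Both T-type genes rose by nearly the same factor. Cacna1g was read at 245, 220.3 and 262 CPM with progesterone and at 160.3, 166 and 174 CPM in controls (1.45-fold, edgeR adjusted p = 2.84e-06). Cacna1h was read at 121, 107 and 124 CPM with progesterone and at 75.9, 79.0 and 82.3 CPM in controls (1.48-fold, edgeR adjusted p = 5.33e-07). In neither gene did the groups overlap, and progesterone replicate 2 was the lowest of its group in both. Cacna1g made up 68.0% ± 0.371 of the T-type FPKM with progesterone and 68.4% ± 0.0146 in controls. Of the channels known mainly from nerve terminals, the R-type gene Cacna1e stood at 4.23 ± 0.424 CPM with progesterone and 1.35 ± 0.509 CPM in controls (3.13-fold higher, edgeR adjusted p = 2.25e-05). The P/Q-type gene Cacna1a stood at 9.36 ± 0.894 CPM with progesterone and 12.6 ± 2.09 CPM in controls and was called lower (edgeR adjusted p = 0.00841), a call lost in 3 of 15 alternatives, among them that without control replicate 3 (adjusted p = 0.0546; range 0.00074 to 0.0704). The N-type gene Cacna1b, at 1.60 ± 0.277 CPM with progesterone and 1.84 ± 0.00601 CPM in controls, did not pass (edgeR adjusted p = 0.436).

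Among the calcium channel auxiliary subunits the largest fold change was that of Cacna2d2, an alpha2delta subunit. It was read at 39.0, 40.3 and 44.6 CPM with progesterone and at 84.3, 87.2 and 92.5 CPM in controls, and fell 2.13-fold (log2 fold change -1.09 ± 0.057, SE; edgeR adjusted p = 1.66e-10). Its relative Cacna2d1 had overlapping groups, at 51.7 ± 4.16 CPM with progesterone and 50.7 ± 0.407 CPM in controls (log2 fold change 0.03 ± 0.058, SE; edgeR adjusted p = 0.704). By FPKM, Cacna2d2 made up 40.4% ± 2.78 of the alpha2delta total with progesterone and 59.6% ± 0.917 in controls, a share looked at after the values were seen. Cacnb2, the main beta subunit of heart muscle, rose 1.197-fold, with 53.0 ± 1.60 CPM with progesterone and 44.3 ± 1.37 CPM in controls (edgeR adjusted p = 0.000421). Cacnb3 fell 1.23-fold, with 26.8 ± 0.855 CPM with progesterone and 32.9 ± 1.79 CPM in controls (edgeR adjusted p = 0.000884). Cacnb2 made up 66.9% ± 0.522 of beta subunit FPKM with progesterone and 58.6% ± 1.94 in controls. Cacnb1 (2.72 ± 0.586 CPM with progesterone, 2.30 ± 0.326 CPM in controls) and the gamma subunit Cacng6 (1.97 ± 0.430 CPM with progesterone, 2.70 ± 0.0309 CPM in controls) did not pass (edgeR adjusted p = 0.351 and 0.0735), although Cacng6 passed without progesterone replicate 2 (adjusted p = 0.028; range 0.028 to 0.23). Of the other gamma genes, Cacng4 and Cacng7 were tested below 1 CPM and did not pass (edgeR adjusted p = 0.393 and 0.0683), Cacng7 passing with upper quartile scaling (0.0448) and without control replicate 3 (0.0298; range 0.0298 to 0.245).

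The HCN genes moved in opposite directions, and their summed level overlapped between the groups. Hcn4, the main pacemaker channel of the sinoatrial node, was read at 67.7, 55.5 and 63.0 CPM with progesterone and at 35.1, 37.6 and 38.0 CPM in controls (1.68-fold higher, log2 fold change 0.75 ± 0.068, SE; edgeR adjusted p = 2.47e-07). Hcn2, the isoform known from ventricular muscle, was read at 17.3, 15.4 and 17.0 CPM with progesterone and at 22.8, 25.2 and 28.2 CPM in controls (1.53-fold lower, log2 fold change -0.61 ± 0.085, SE; edgeR adjusted p = 1.35e-05). In both genes the groups did not overlap. Summed HCN FPKM was 19.1, 16.2 and 18.2 in the progesterone libraries and 15.45, 16.8 and 18.1 in the control libraries. Hcn4 made up 64.0%, 61.7% and 62.5% of it with progesterone and 41.15%, 40.4% and 37.85% in controls, a difference of 22.9 percentage points. With 3 samples against 3, the exact two-sided permutation test cannot give a p below 0.1, and it gave 0.1 for the shares of Hcn4, Cacna1c, Cacna1g and Cacnb2. Hcn3 had 19 counts over the progesterone libraries and 24 over the controls and was not tested.

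**Figure D3:**
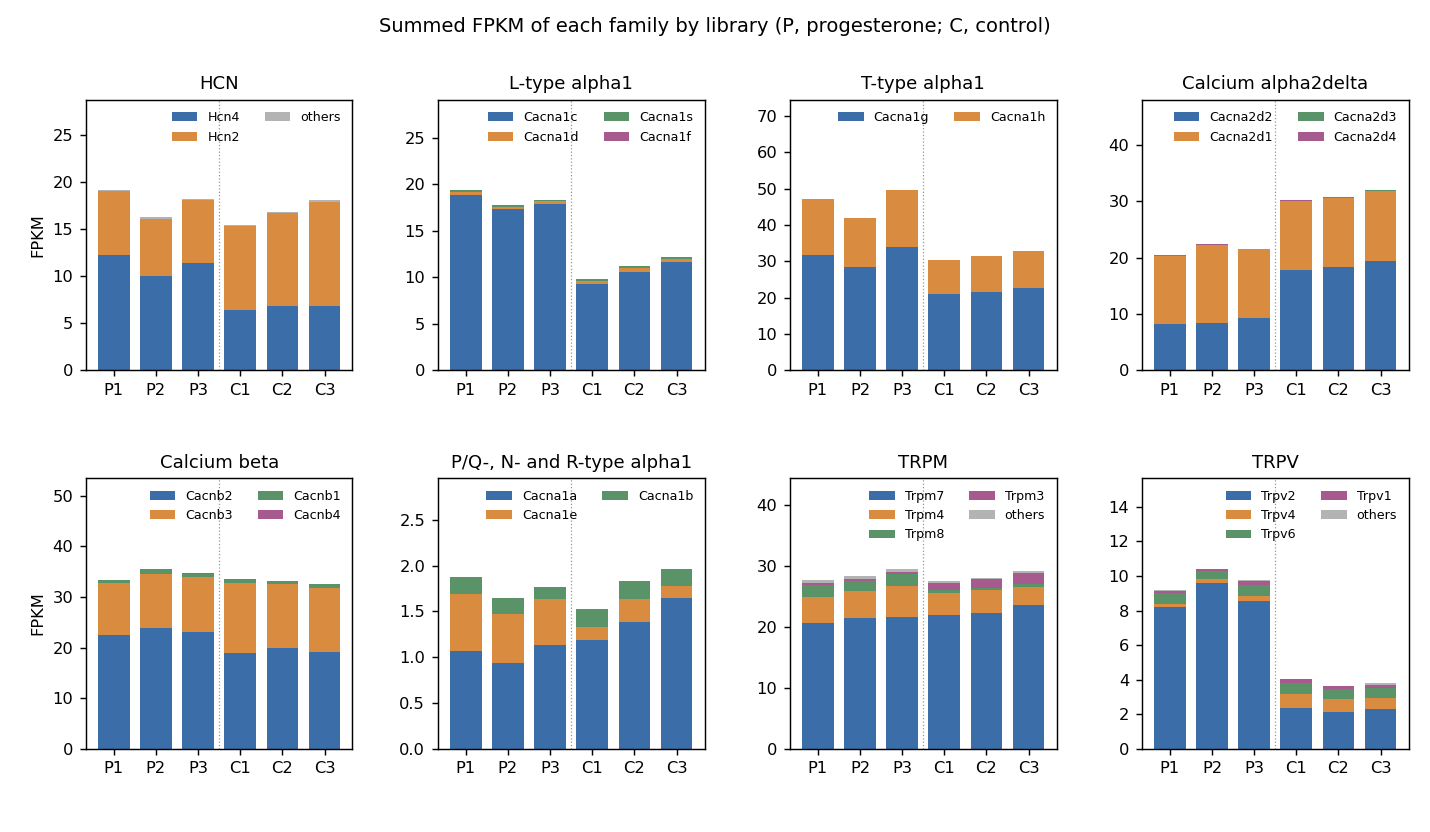
Summed FPKM of 8 channel families in each library, stacked by gene, with the progesterone libraries P1 to P3 left of the control libraries C1 to C3. Bars start at 0, the bars of HCN reach like heights with a larger Hcn4 part in P1 to P3, and those of calcium alpha2delta are lower in P1 to P3 with a smaller Cacna2d2 part.

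TRP channel genes made up 4 of the 6 members that rose by 2-fold or more and 3 of the 9 that fell so far. They were 14 of the 44 tested members. Of 21 genes, 12 were expressed and 14 tested, and 6 were higher, 4 lower and 4 did not pass. The called share was 71.4%, next to 63.0% over all genes tested (31.2% higher and 31.8% lower). Trpc6, a channel opened by diacylglycerol and found in smooth muscle and heart, was read at 18.1, 17.1 and 15.3 CPM with progesterone and at 4.29, 4.64 and 3.28 CPM in controls. It rose 4.12-fold without overlap (log2 fold change 2.04 ± 0.13, SE, edgeR adjusted p = 2.2e-09). In the same libraries the smooth muscle, fibroblast, leukocyte, and neuron and Schwann cell marker sums given above were all higher too. Trpc1, at 9.93 ± 1.26 CPM with progesterone and 9.20 ± 0.669 CPM in controls, did not pass (edgeR adjusted p = 0.438). Trpc2, known in rodents from the vomeronasal organ, was called lower at 5.34 ± 0.511 CPM with progesterone and 6.78 ± 0.435 CPM in controls (edgeR adjusted p = 0.0405), but the call was lost in 9 of 15 alternatives, among them those without progesterone replicate 1 or 2 or control replicate 1 or 3 (adjusted p 0.0916, 0.107, 0.0763 and 0.107; range 0.0292 to 0.13). The adaptor gene Trpc4ap, at 169.5 ± 2.85 CPM with progesterone and 178 ± 3.58 CPM in controls, did not pass (edgeR adjusted p = 0.131).

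Of the 6 tested TRPM genes 3 rose, 2 fell and Trpm7 did not pass, next to 31.2% higher and 31.8% lower over all genes tested. Trpm7, an abundant channel fused to a kinase, had 120.4 ± 3.21 CPM with progesterone and 128 ± 4.79 CPM in controls (edgeR adjusted p = 0.0782), and it passed with library size scaling (0.045) and without control replicate 1 (0.0481; range 0.045 to 0.942). Trpm4, a calcium-activated channel that passes sodium and potassium, rose 1.35-fold, with 22.6 ± 2.01 CPM with progesterone and 16.8 ± 1.69 CPM in controls (edgeR adjusted p = 0.000624). Trpm8, the cold and menthol receptor, was read at 8.05, 6.68 and 8.27 CPM with progesterone and at 1.61, 1.89 and 1.62 CPM in controls, 4.48-fold higher (edgeR adjusted p = 1.82e-08). Trpm5, a taste transduction channel, was read at low depth, with 25, 21 and 36 counts in the progesterone libraries and 7, 1 and 11 in the control libraries (edgeR adjusted p = 0.00106). Its log2 fold change was 2.21 ± 0.48 (SE), and ran from 1.72 without control replicate 2 to 2.89 without control replicate 3. Trpm3, a channel opened by heat and by the steroid pregnenolone sulfate, fell 3.44-fold, with 2.80 ± 0.322 CPM with progesterone and 9.68 ± 2.02 CPM in controls (edgeR adjusted p = 2.13e-07). The row of Trpm3 overlaps that of Aldh1a7 on the opposite strand, which averaged 3.67 counts with progesterone and 37.0 in controls, and no source used here says whether reads were counted by strand. Trpm6, a magnesium channel, was tested under 1 CPM, with 10 counts over the progesterone libraries and 53 over the controls (edgeR adjusted p = 0.000592).

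Trpv2, a channel of muscle and leukocytes that responds to stretch, was read at 23.0, 27.0 and 24.0 CPM with progesterone and at 6.54, 6.05 and 6.48 CPM in controls. It rose 3.88-fold without overlap (log2 fold change 1.96 ± 0.091, SE, edgeR adjusted p = 4.35e-11). In the same libraries the leukocyte, fibroblast, smooth muscle, and neuron and Schwann cell marker sums given above were all higher too. Trpv4, an osmotically sensitive channel, fell 2.99-fold, with 0.806 ± 0.128 CPM with progesterone and 2.42 ± 0.308 CPM in controls (edgeR adjusted p = 4.06e-05). Trpv6, an epithelial calcium channel, stood at 1.69 ± 0.373 CPM with progesterone and 1.72 ± 0.0902 CPM in controls and did not pass (edgeR adjusted p = 0.94), nor did Trpv1, the capsaicin receptor, under 1 CPM (edgeR adjusted p = 0.594). Summed over each family, FPKM was 10.2 ± 0.179 with progesterone and 5.99 ± 0.167 in controls for TRPC, 28.6 ± 0.979 with progesterone and 28.2 ± 0.811 in controls for TRPM, and 9.78 ± 0.635 with progesterone and 3.81 ± 0.199 in controls for TRPV. On the scale of log2(FPKM + 1), which understates changes of low genes, the fold changes of 10 called members were smaller by more than 1.5 times, namely Trpc6, Trpm3, Trpm5, Trpm6, Trpm8, Trpv4, Cacna1e, Scn2b, Scn4a and Scn7a, and the call of Trpm6 was lost there (adjusted p = 0.063; range 0.000105 to 0.063).

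**Figure D4:**
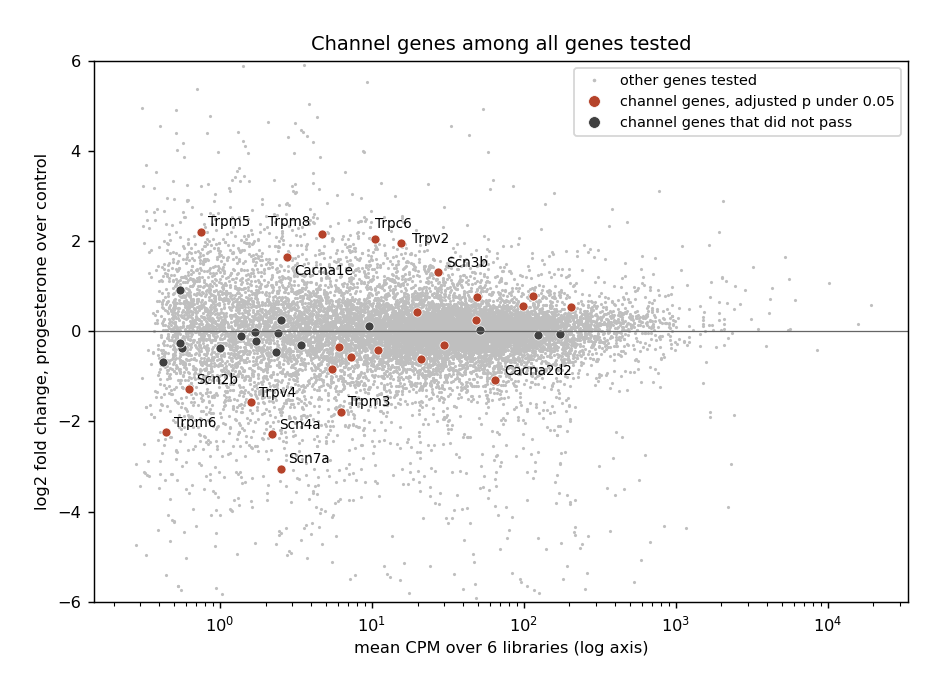
Log2 fold change of progesterone over control against mean CPM over the 6 libraries (log axis) for 41 of the 44 tested channel genes among all genes tested, with the 13 shown members named that passed and changed by 2-fold or more. Of these 13 members 6 lie above and 7 below 0, and 94 genes with a log2 fold change past 6 in either direction are not plotted.

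The remaining 28 members were not expressed at 1 CPM. Just inside that level, under 2 CPM, lay 5 members (Cacna1b, Cacna1s, Scn8a, Trpm5 and Trpv6), and 6 lay between 0.5 and 1 CPM (Scn2b, Scn3a, Cacng4, Cacng7, Trpm6 and Trpv1). The 22 members that were not tested had at most 43 counts over all 6 libraries. Of these, Cacng1, Cacng2, Scn11a, Trpv5 and Trpc5os had no count in any library, which allows a level of up to 0.118 to 0.142 CPM per library (3 counts of the library total, for counting error only). Hcn3, the calcium channel genes Cacna1f, Cacna2d3, Cacna2d4, Cacnb4, Cacng3, Cacng5 and Cacng8, the sodium channel genes Scn9a and Scn10a, and Trpc4, Trpc5, Trpc7, Trpm1, Trpm2 and Trpv3 had from 1 to 43 counts in all.

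Several members lie side by side in the genome, in the coordinates of the table, whose rat build is not named. On chromosome 3, Scn3a, Scn2a, Scn1a, Scn9a and Scn7a lie between 51532627 and 52849907. Of these, Scn1a and Scn7a fell, Scn2a and Scn3a did not pass and Scn9a had 1 count in all, and differences between neighbours were not tested. The log2 fold change was -0.83 ± 0.17 for Scn1a and -0.68 ± 0.46 for Scn3a (SE), which had 21 counts over the progesterone libraries and 37 over the controls. The beta subunit genes Scn2b (49418965 to 49427689) and Scn4b (49441106 to 49456279) are neighbours on chromosome 8, and both were lower with progesterone.

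Other genes were counted by list, namely partners of these channels, regulators of pacemaker and conduction cells, and TRP channels with other names. Of 67 such genes with a row, 60 were tested, and 19 rose and 19 fell (median change -0.01 on the log2 scale). Over all genes tested 31.2% were higher and 31.8% lower, so both shares were near the background, and the counts of the single lists rest on few genes each. Sodium channel partners had 0 of 11 tested members higher and 6 lower (median -0.23). Fgf13, an intracellular modulator of sodium channels, stood at 5.87 ± 0.340 CPM with progesterone and 11.1 ± 1.15 CPM in controls (edgeR adjusted p = 8.04e-06). Gpd1l and Nedd4l, which act on the surface level of sodium channels, fell 1.48-fold and 1.28-fold (edgeR adjusted p = 5.82e-07 and 0.000783). Calcium channel partners had 7 of 18 higher and 4 lower (median 0.08). Stac, an adaptor of L-type channels, rose 4.62-fold and Jph2, which holds the surface membrane near calcium stores, rose 1.41-fold (edgeR adjusted p = 1.62e-08 and 3.76e-08). Gem, a small GTPase that inhibits calcium channels, fell 1.91-fold (edgeR adjusted p = 1e-07). Stac2, a relative of Stac, fell 2.11-fold (edgeR adjusted p = 4.43e-07). Of the relatives of Gem, Rem1 rose 1.41-fold, Rrad fell 1.67-fold and Rem2 did not pass (edgeR adjusted p = 7.31e-06, 0.00306 and 0.0683).

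Store-operated calcium entry genes had 3 of 9 tested members higher and 5 lower (median -0.36). Orai2, a pore subunit of that pathway, stood at 12.1 ± 1.26 CPM with progesterone and 46.8 ± 4.31 CPM in controls (edgeR adjusted p = 9.6e-11). The calcium sensor Stim2 fell 1.73-fold and Saraf, which inactivates the pathway, rose 1.58-fold (edgeR adjusted p = 1.26e-08 and 1.68e-09). HCN partners had 3 of 6 higher and 1 lower, led by the actin cross-linker Flna (2.26-fold), Irag1 (1.87-fold) and Kctd3 (1.33-fold, edgeR adjusted p = 1.5e-11, 9.38e-08 and 1.69e-06). Pacemaker and conduction regulators had 4 of 11 higher and 3 lower (median 0.19). Nkx2-5, a heart transcription factor, rose 1.34-fold and Hey2, a ventricular repressor, rose 1.67-fold, while Irx3, a factor of the conduction system, fell 1.47-fold (edgeR adjusted p = 3.71e-07, 6.82e-05 and 3.65e-05). Shox2 and Isl1, regulators of the sinoatrial node, were at 1.37 ± 0.378 and 0.803 ± 0.245 CPM with progesterone and at 1.17 ± 0.253 and 0.947 ± 0.177 CPM in controls, and both did not pass (edgeR adjusted p = 0.511 and 0.527).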

How the data were processed

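Whole-number raw counts for each gene were deposited by the authors, together with FPKM. The FPKM values of the authors were the count per length over one divisor per library, which lay within 1.57% of the library's count total. Per the labels' protocols, mRNA was enriched and the TruSeq RNA kit was used. Bowtie 0.12.2 and the mouse build mm8 are named per the submitters' processing notes, while the rows hold rat Ensembl identifiers. No source used here gives the counter or the rat build. Assembled rows without a gene name (682, with 0.867% of the counts) were kept. Samples were grouped by their titles.

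The test was edgeR 4.0.16 (R 4.3.3), with a robust quasi-likelihood fit, TMM scaling (factors 0.9835 to 1.011), the filterByExpr filter (minimum count 10, minimum total 15) and Benjamini-Hochberg adjustment over all 15075 genes at 0.05. SEs were derived from the F statistic. On simulated counts for this comparison with 15075 genes the share of changed genes recovered was 22% for 1.25-fold changes, 60% for 1.5-fold, 96% for 2-fold and 100% for 4-fold. Of 146 calls, 7 were false. The simulation changed few genes and used a single fixed spread, whereas 63.0% of genes tested were called in the data. Its recovery shares therefore do not carry over to these data. No replicate pair was a duplicate by chi-square, which was 5.39 to 9.33 per degree of freedom. Alternatives were other scalings and filters, DESeq2 1.42.0, limma 3.58.1 on log2(FPKM + 1) and log2(FPKM + 0.1), a replicate block and each replicate left out.

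Members and gene lists were chosen with earlier results of these data known. Of 134 list entries, 127 matched a row by symbol and 2 by an older symbol of RefSeq. A few members are counted but not reported by name here. Every other member with a mean of at least 1 CPM was named, with up to 3 partner genes per list by smallest adjusted p. Outside this rule, the 6 tested members below 1 CPM, Shox2, Isl1, Stac2, Rem1, Rem2, Rrad, the cell type markers and the further shares within a family were named after their values were seen.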

Additional observations from a re-analysis of the deposited data

How the results depend on the processing

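Of the 44 tested members, 32 kept their direction and their side of the threshold in every alternative that gave a value, and 4 of the 28 called members lost their call in at least 1 (Cacna1a, Scn2b, Trpc2 and Trpm6). The replicate block gave 13 higher and 15 lower members, as without it. Deviations of same-numbered samples correlated at r = 0.0492, 0.018 and -0.000936, within the -0.087 to 0.0673 of the other pairings. With 3 samples per group this gives no sign that the numbers pair the samples, but it cannot exclude a pairing. The direction of members that did not pass turned with upper quartile scaling, which shifted the median over all genes by 0.10 (log2), for Trpc4ap (0.0241), Trpm7 (0.004), Trpv6 (0.0734) and Scn2a (0.0554). With replicates left out in turn, log2 fold changes ran from -0.16 to 0.14 for Trpv6, -0.0392 to 0.065 for Cacna2d1, -0.13 to 0.0376 for Scn2a and -0.34 to 0.0939 for Scn8a, so that their direction is not set. The cause was not tested. Members lower by 2-fold or more numbered 3 on log2(FPKM + 1), a scale that shrinks low genes. Computed on counts, not per length, the difference in the Hcn4 share was 19.6 percentage points, against 22.9 by FPKM. Without single replicates it ran from 21.95 to 23.6. Members counted as expressed were 24 at 1 FPKM, 44 at 0.5 CPM and 33 at 2 CPM. Depth limits the 22 members that were not tested, for which no difference was detectable.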

Other observations

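Cacna1i, the remaining T-type gene, matched the names but has the biotype processed transcript and was left out of the members. It had 15, 16 and 18 counts in the progesterone libraries and 13, 14 and 8 in the control libraries (edgeR adjusted p = 0.143).

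Among TRP channels with other names, the lysosomal mucolipin genes moved apart. Mcoln3 stood at 4.24 ± 0.868 CPM with progesterone and 0.928 ± 0.165 CPM in controls (SD, n = 3 each, edgeR adjusted p = 7.72e-07). Mcoln2, known mainly from immune cells, stood at 3.62 ± 1.48 CPM with progesterone and 0.981 ± 0.418 CPM in controls (edgeR adjusted p = 0.00233). In the progesterone libraries the leukocyte, fibroblast, smooth muscle, and neuron and Schwann cell marker sums were all higher too. Mcoln1, which most cells use, fell 1.28-fold, with 41.5 ± 2.13 CPM with progesterone and 53.2 ± 2.42 CPM in controls (edgeR adjusted p = 5.33e-05). The polycystin genes Pkd1 and Pkd2 did not pass (edgeR adjusted p = 0.25 and 0.808).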
